A study of Homo sapiens with 6 samples.

Results

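TRIM24 occupancy in castration-resistant LNCaP-abl cells without added hormone was set beside TRIM24 occupancy in androgen-dependent LNCaP cells under androgen. Both came from chromatin immunoprecipitation and sequencing (ChIP-seq), with 1 library a side. The LNCaP-abl list held 20621 peaks and the DHT list of LNCaP 7105, together 27726 of the 37470 peaks in the series. The remaining 9744 belong to LNCaP under vehicle and serve below as the yardstick. LNCaP is a human prostate cancer line that needs androgen to grow, and LNCaP-abl is its castration-resistant derivative. The LNCaP cells had spent 72 h in medium with charcoal/dextran-treated serum, which holds little steroid, before 4 h with 10 nM dihydrotestosterone (DHT) or with ethanol as vehicle. LNCaP-abl cells were always kept in such serum and had vehicle for 4 h. All 3 immunoprecipitations used the same TRIM24 antibody. The identity of the lines could not be checked, because peak lists hold no expression values.

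TRIM24 is a chromatin reader whose PHD finger and bromodomain together bind the tail of histone H3. It acts as a coactivator of nuclear receptors, the androgen receptor among them. Androgen receptor moves into the nucleus and binds DNA once DHT is bound, and castration-resistant cells keep growing when that ligand is scarce. The question asked of the lists is whether TRIM24 sites of LNCaP-abl without hormone are those that LNCaP shows under androgen.

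Ranks rather than scores were compared. The authors' score of a peak is a −log10 of a p or q value and grows with sequencing depth, which the lists do not give. Rank 1 is the highest score of a list, and equal scores share their mean rank. Peaks were matched when they overlapped by at least 1 bp. Intervals are exact 95% intervals of counting error and treat peaks as independent. Since each condition had 1 library, differences have no replicate check and were not tested.

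Most TRIM24 sites of androgen-treated LNCaP also had a peak in LNCaP-abl, in all rank groups of the DHT list. Of the 7105 DHT peaks, 88.8% had a LNCaP-abl peak, which is 6306 peaks. Among the highest-ranked 10% of DHT peaks the share was 93.1% (91.0 to 94.9), and among the lowest-ranked 10% it was 85.8% (83.0 to 88.2). The 8 groups between lay from 85.8% to 91.0%, so a DHT peak near the caller's threshold had a LNCaP-abl partner almost as often as a leading one. In the other direction the share followed the rank closely. Of the LNCaP-abl peaks, 27.4% had a DHT peak. That share was 84.9% (83.3 to 86.4) in the highest-ranked 10% of LNCaP-abl peaks, 57.6% (55.4 to 59.8) in the next 10% and 4.06% (3.25 to 5.01) in the lowest-ranked 10%. The lists are of unequal length, with 34.5 DHT peaks for every 100 LNCaP-abl peaks, which limits this share. Cut to 7105 peaks as well, the LNCaP-abl list had a DHT peak at 57.4% of its peaks. If each peak had to cover at least 50% of the other, the DHT share was 24.5% and the LNCaP-abl share 8.44%. Nested peaks over 2 times apart in width always fail that rule.

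**Figure D1:**
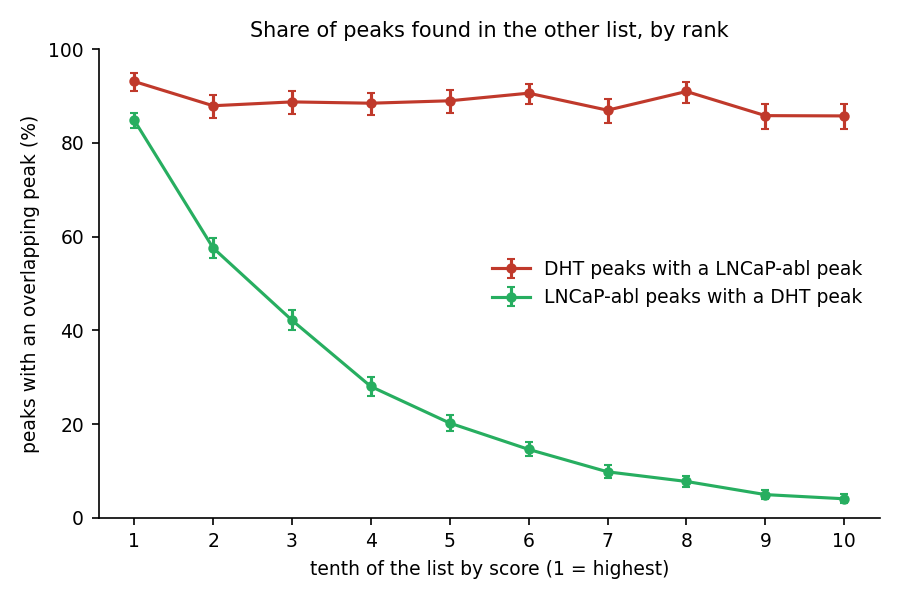
Share of peaks with an overlapping peak in the other list (y axis, %) for groups of 10% of each list ordered by score (x axis, 1 = highest). Bars are exact 95% intervals. DHT peaks stay between 85.8% and 93.1%, while LNCaP-abl peaks fall from 84.9% to 4.06%.

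The leading sites of the lists were less alike than these shares. When the same number of peaks was taken from the top of each list, 37 of the 100 leading DHT peaks met one of the 100 leading LNCaP-abl peaks (37.0%, 27.6 to 47.2). With 1000 peaks from each list, 437 DHT peaks did (43.7%, 40.6 to 46.8). With 3000 peaks the share was 49.4%, and with 7105 it was 66.3% (65.2 to 67.4). A required cover of 50% each way lowered the share at 1000 peaks to 24.5%. The DHT peaks whose partner was not at the top of the LNCaP-abl list were rarely without one. Of the 100 leading DHT peaks, 99 had a LNCaP-abl peak somewhere in the list. Of these 100, 71 had one within the first 1000 LNCaP-abl ranks, 79 within the first 5000 and 88 within the first 10000. For the 2105 DHT peaks from rank 5001 on, the share with a partner in the first 1000 ranks was 6.37% (5.36 to 7.49), and 87.4% (85.9 to 88.8) had a partner at any rank.

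In their full lengths both LNCaP lists were held by LNCaP-abl alike, with 88.8% of DHT peaks (88.0 to 89.5) and 88.4% of the 9744 vehicle peaks (87.7 to 89.0). In lists of equal length, LNCaP-abl included, the vehicle share was the higher at each of the 8 lengths compared. The share of vehicle peaks that met LNCaP-abl was 51.0% (40.8 to 61.1) with 100 peaks a list, 51.2% (48.1 to 54.3) with 1000 and 69.4% with 7105. The difference, DHT minus vehicle, ran from -14 percentage points at 100 peaks to -3.07 (-4.61 to -1.52) at 7105, where a required cover of 50% each way made it -7.26. At 100, 250 and 500 peaks the intervals of both shares overlapped, and from 1000 peaks on they did not. DHT and vehicle peaks met each other most often among the leading peaks, with 60.4% (57.3 to 63.4) at 1000 peaks a list. At 5000 peaks, more DHT peaks met a LNCaP-abl peak (58.5%) than a vehicle peak (55.9%). Counted from the other lists the order was reversed, with 53.6% of LNCaP-abl peaks and 55.4% of vehicle peaks meeting a DHT peak. At 7105 peaks the latter shares were 57.4% and 57.5%. Several DHT peaks can meet the same LNCaP-abl peak, so which list is nearer to DHT depends on the direction of counting. The vehicle list was the longer of the LNCaP lists before it was shortened. The part of that in the differences of DHT and vehicle shares was not tested.

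**Figure D2:**
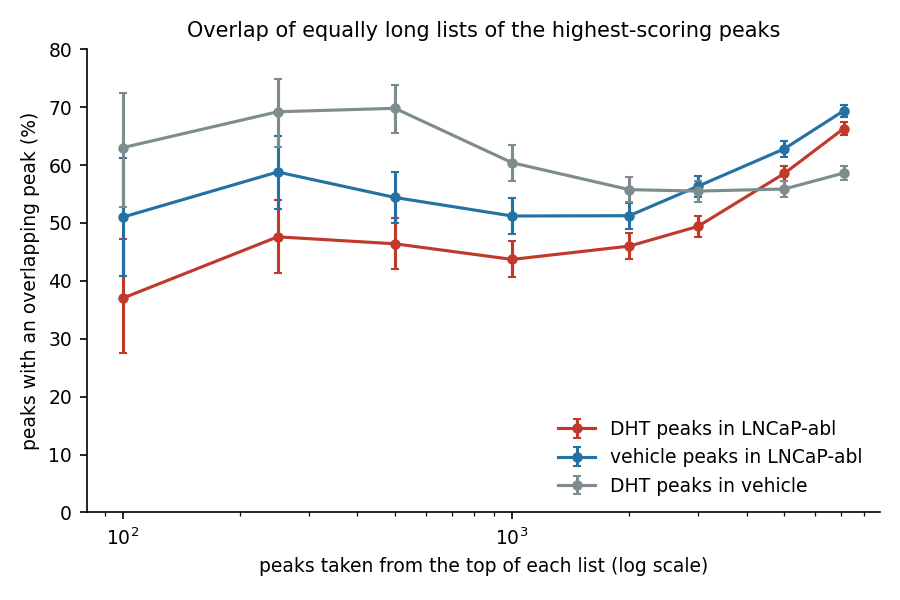
Share of peaks with an overlapping peak (y axis, %) when equally many of the highest-scoring peaks are taken from each list (x axis, log scale). Bars are exact 95% intervals. DHT against LNCaP-abl (37.0% to 66.3%) lies below vehicle against LNCaP-abl (51.0% to 69.4%) at each length, and the bars of these 2 pairs overlap at 100, 250 and 500 peaks.

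Overlapping peaks of LNCaP-abl and DHT were joined into sites, and 5620 of 21386 sites (26.3%) held peaks of both. Ranks were formed anew over these 5620 shared sites, so that both rankings have the same length. Where a site held several peaks of a list, the highest score was kept. Strong sites in the one condition tended to be strong in the other, but loosely. Spearman's rho over the 5620 sites was 0.313, given as a description because neighbouring sites and a common genome tie the points together. The median site stood 1181 ranks apart in the 2 rankings, or 21.0% of their length. At 868 sites (15.4%) the distance was more than 50% of the length. Of the sites in the top 25% under DHT, 699 (49.6%) were also in the top 25% of LNCaP-abl.

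Several sites stood near the top of both lists. On chromosome 1 from 211431984 to 211433400, TRIM24 ranked 3 of 20621 in LNCaP-abl and 5 of 7105 under DHT, with 2 DHT peaks inside a single LNCaP-abl peak. The site on chromosome 6 from 170491956 to 170492909 ranked 5 in LNCaP-abl and 2 under DHT. That on chromosome 5 from 177026641 to 177027570 ranked 2 and 6. The same sites led the vehicle list, at ranks 3, 2 and 1. The next sites by the poorer of the 2 ranks were chromosome 11 from 118306601 to 118307948 (ranks 16 and 9) and chromosome 19 from 1383263 to 1384301 (19 and 13). They were followed by chromosome 11 from 47429489 to 47430450 (4 and 21), chromosome 3 from 51572406 to 51573182 (9 and 33) and chromosome 22 from 22336922 to 22337531 (22 and 34). All 8 had a vehicle peak, at rank 24 or better.

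A second set of sites was strong under DHT and weak in LNCaP-abl. Of the sites in the top 25% under DHT, 267 (18.9%) were in the bottom 25% of LNCaP-abl. Unrelated rankings would put 25% there, and the lower DHT groups had 22.5%, 26.9% and 31.7% there. The 267 sites are thus a smaller share than unrelated rankings would give or the lower DHT groups had. Their median score was 19.6 in LNCaP-abl and 15.1 under DHT, so low refers to rank. The LNCaP-abl groups between held 261 (18.5%) and 182 (12.9%) of the leading DHT sites. The leading DHT sites thus gathered at the top of the LNCaP-abl ranking. They were fewest in the group just above the bottom 25% and more frequent again in the bottom 25%. In the 267 sites the median width was 399 bp for the LNCaP-abl peak and 402 bp for the DHT peak. In the 699 sites at the top of both rankings the medians were 1059 bp and 494 bp. A vehicle peak was present at 229 (85.8%) of the 267 sites and at 689 (98.6%) of the 699. In 145 of the 267 (54.3%) the vehicle peak was in the top 25% of its own list, so most of these sites were strong in LNCaP with and without androgen. The crowded windows described below held 26 of the 267 sites and 0 of the 699.

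The sites of this set with the highest DHT scores were picked after their values had been seen. On chromosome 19 from 50490110 to 50490926 the peak ranked 3 under DHT with a score of 159, and 8283.5 in LNCaP-abl with a score of 39.3. It ranked 237 under vehicle. The site on chromosome 19 from 57149303 to 57149881 ranked 8 under DHT, 37 under vehicle and 8001 in LNCaP-abl. On chromosome 19 from 4769250 to 4769907 the ranks were 15, 345 and 8549, and on chromosome 20 from 36530066 to 36530776 they were 16, 66 and 7883. These leading LNCaP peaks were in the bottom 25% of LNCaP-abl among shared sites only. In the full LNCaP-abl list of 20621 peaks their scores lay above the median of 26.1. In raw score, which favours LNCaP-abl at 96.4% of shared sites, 201 sites (3.58%) scored higher under DHT, and 197 of them were in the bottom 25% of LNCaP-abl. With scores so unequal, a site can score higher under DHT almost only where its LNCaP-abl score is low. The 197 therefore say little about these sites.

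By the difference of the 2 shared-site ranks, the widest gaps in favour of DHT were at chromosome 16 from 88627142 to 88627512 (rank 143 under DHT and 5595 in LNCaP-abl) and at chromosome 19 from 10172518 to 10173030 (165 and 5462.5). Both had vehicle peaks, at ranks 761.5 and 617.5 of that list. A pair of sites in one crowded window came next, on chromosome 2 from 92281134 to 92281536 (299 and 5585) and from 92315934 to 92316511 (310 and 5589). The site on chromosome 5 from 151304072 to 151304490 ranked 31 under DHT and 5307.5 in LNCaP-abl, and that on chromosome 9 from 128844926 to 128845448 ranked 114 and 5352. In the full LNCaP-abl list the chromosome 5 peak was 14633.5 of 20621, with a score of 10.8 against 75 under DHT.

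The opposite gaps joined leading LNCaP-abl peaks, 781 to 1924 bp wide, to DHT peaks of low score. The DHT scores ran from 3.02 to 4.69, against a median of 6.82 over the DHT list. On chromosome 10 from 21462025 to 21463829 a LNCaP-abl peak of 1805 bp ranked 434 among shared sites and held a DHT peak of 209 bp that ranked 5533.5. The DHT score there was 3.02, against 214 in LNCaP-abl. The site on chromosome 8 from 81083302 to 81084082 ranked 457 and 5454.5, and that on chromosome 6 from 170893099 to 170894042 ranked 299 and 5196. Chromosome 1 from 244210998 to 244212921 (268 and 5022), chromosome 12 from 57482247 to 57483221 (371 and 4728) and chromosome 5 from 180287917 to 180288944 (322 and 4659.5) followed. All 6 had vehicle peaks of middle or upper rank, between 1134 and 2939 of 9744.

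**Figure D3:**
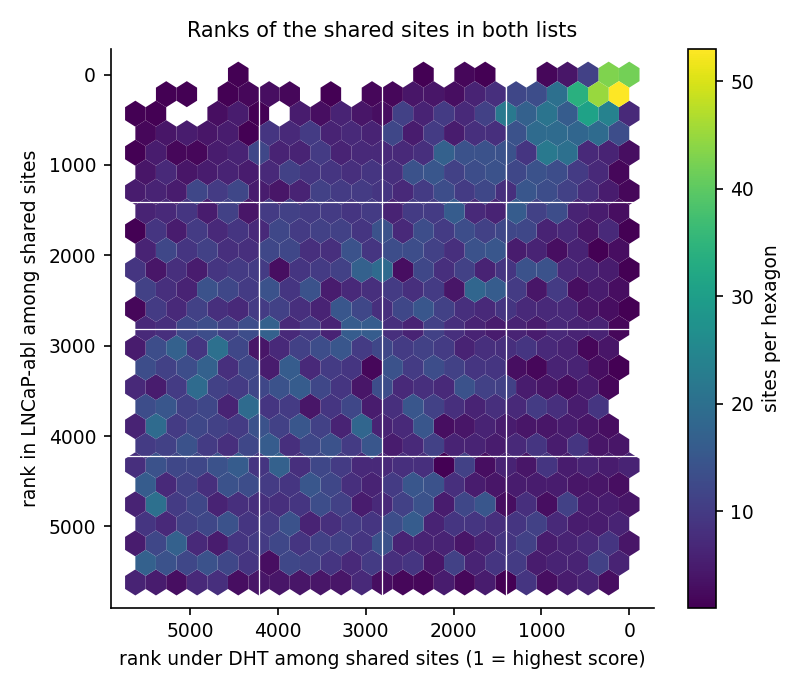
Ranks of the 5620 shared sites under DHT (x axis) and in LNCaP-abl (y axis), with 1 for the highest score at the right and at the top. Colour gives the number of sites per hexagon, and white lines mark groups of 25%. Sites gather where both ranks are high (699 in that corner), and the rest spread widely, with 267 at the lower right.

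LNCaP-abl peaks were wider than DHT peaks at 5291 of the shared sites (94.1%). The median width there was 923 bp in LNCaP-abl and 315 bp under DHT. At 4670 sites (83.1%) the highest DHT peak lay wholly inside the LNCaP-abl peak, and at 153 the reverse was true. Midpoints were a median of 112.5 bp apart. Among all 5620 shared sites, 628 held 2 or more DHT peaks, up to 5, whereas 28 held 2 or more LNCaP-abl peaks. Width and score moved together within a list, with a rho of 0.831 over LNCaP-abl peaks and 0.556 over DHT peaks. Widths of the same site in the 2 lists were only weakly related (rho 0.164).

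Leading LNCaP-abl peaks that DHT-treated LNCaP lacked began at rank 257 of 20621. That first peak, on chromosome 7 from 27169494 to 27170888, had no vehicle peak, and the nearest DHT peak was 33.5 kb away. Rank 283 was held by chromosome 6 from 76311179 to 76312494, and rank 284.5 by chromosome 8 from 33579604 to 33580313. Next came chromosome 10 from 70166184 to 70167295 and chromosome 11 from 68518526 to 68519198, both at rank 341.5. The remaining 3 of the 8 leading peaks were on chromosome 14 from 23425923 to 23426607 (rank 348), chromosome 7 from 77045157 to 77046183 (367) and chromosome 6 from 43149593 to 43150104 (457.5). Of these 8, the peaks on chromosomes 10, 11 and 14 and both on chromosome 6 had a vehicle peak, and the best vehicle rank among them was 883.5, on chromosome 11. The 14967 LNCaP-abl peaks without a DHT peak lay a median of 65.6 kb from the nearest one, and 5.48% of them lay less than 1 kb away.

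DHT peaks that LNCaP-abl lacked numbered 799 and began at rank 86 of 7105. Their median distance to a LNCaP-abl peak was 17.8 kb, and 137 (17.1%) had one less than 1 kb away. These distances cannot be set against the 65.6 kb above, because the LNCaP-abl list is the longer one. The leading peak was on the mitochondrial genome from 16041 to 16571 and ranked 34 under vehicle. That genome had 7 DHT, 9 vehicle and 0 LNCaP-abl peaks. The next was on chromosome 19 from 56181418 to 56182070, at rank 195 and 3.97 kb from a LNCaP-abl peak. It ranked 85 under vehicle. Chromosome 1 from 11610748 to 11610997 (rank 205) and from 37721018 to 37721295 (271.5) were far from any LNCaP-abl peak, at 70.3 kb and 193 kb. The first of this pair was of low rank under vehicle (6666) and the second of high rank (812.5). The other 4 of the 8 leading peaks lay in crowded windows, with 2 on chromosome 10 (42399258 to 42399660 and 42529224 to 42530417), another on chromosome 7 (61970924 to 61971462) and the last on chromosome 2 (92319958 to 92320603).

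The mitochondrial genome and 6 windows of 1 Mb, picked after the data were seen as those with the most unmatched DHT peaks, held 106 of the 799 (13.3%). The densest was chromosome 10 from 42 to 43 Mb, with 44 DHT, 43 vehicle and 18 LNCaP-abl peaks, followed by chromosome 2 from 92 to 93 Mb with 29, 30 and 9. The others were on chromosome 7 from 61 Mb, chromosome 4 from 49 Mb, chromosome 11 from 51 Mb and chromosome 2 from 89 Mb. In all, DHT and vehicle had 135 peaks each in these places and LNCaP-abl had 36. The low LNCaP-abl number follows in part from how the windows were picked. Without them, 90.1% of DHT peaks had a LNCaP-abl peak, against 88.8% with them.

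The sites that bear most directly on the question are DHT peaks that vehicle-treated LNCaP lacks. Of these 2366 peaks, 76.8% were in LNCaP-abl. Vehicle peaks without a DHT peak were found there more often at matched rank. Between ranks 1001 and 3000 of their lists, the share was 75% (70.8 to 78.8) of 472 DHT peaks and 93.0% (90.7 to 94.9) of 600 vehicle peaks. From rank 3001 to 5000 the shares were 78.4% (75.4 to 81.2) of 814 and 89.1% (87.1 to 90.9) of 1048. Between ranks 5001 and 7105 it was 77.9% (75.2 to 80.4) of 1023 and 84.7% (82.6 to 86.6) of 1326. In the first 1000 ranks only 57 DHT and 47 vehicle peaks were of this kind. Of these, 27 (47.4%, 34.0 to 61.0) and 43 (91.5%, 79.6 to 97.6) were in LNCaP-abl. The intervals of DHT and vehicle peaks did not overlap in any of these 4 rank ranges. They count peaks within 1 library a condition and are no test between conditions. Set against the 7105 leading LNCaP-abl peaks alone, 43.8% of all DHT peaks of this kind were matched (41.8 to 45.8), and 51.0% of the vehicle peaks (49.6 to 52.4). With all 3 lists cut to 7105 peaks, so that the classes themselves were formed anew, the shares were 48.9% and 57.3%, and with a required cover of 50% each way they were 15.7% and 19.8%.

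In the LNCaP-abl list, the 1281 peaks shared with DHT and not with vehicle were of middle rank. Their median rank was 7835.5, against 6741.5 for the 3048 peaks shared with vehicle alone, 3023 for the 4373 shared with both and 13961 for the 11919 in neither. Among the first 1000 LNCaP-abl peaks 14 were shared with DHT alone and 53 with vehicle alone, while 914 were shared with both and 19 with neither. Peaks shared with DHT alone were most frequent between ranks 4001 and 5000, with 109 of 1000, and vehicle alone exceeded DHT alone in that block with 278.

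**Figure D4:**
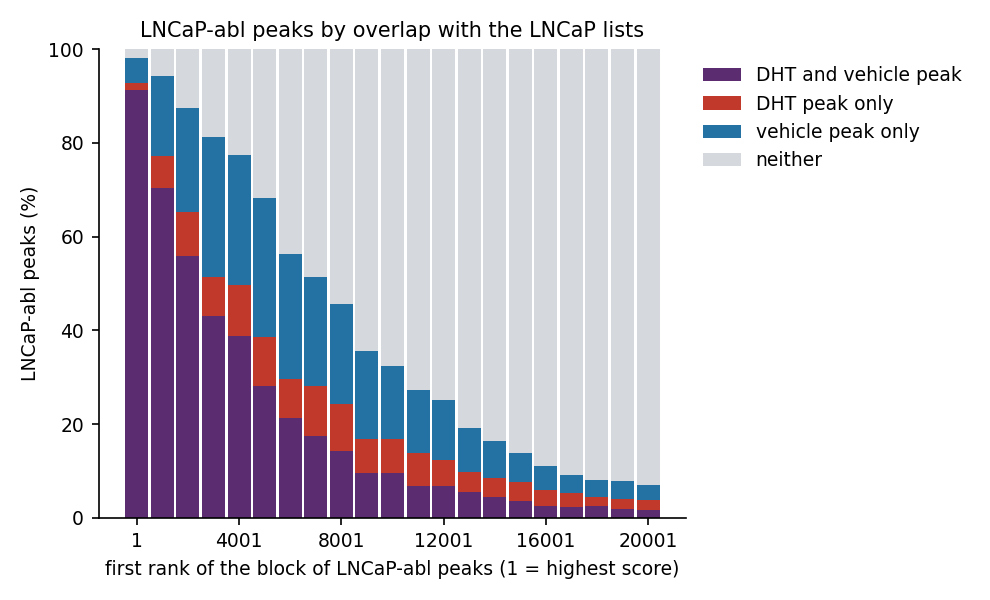
LNCaP-abl peaks in blocks of 1000 by rank (x axis, first rank of the block; the last block holds 621 peaks) and the percentage of each block that overlaps peaks of both LNCaP lists, of DHT alone, of vehicle alone or of neither (y axis). Peaks shared with both make up 91.4% of the first block, and DHT alone reaches 10.9% at most.

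By the poorer of the shared-site ranks, the leading site of LNCaP-abl and DHT without a vehicle peak was on chromosome 6 from 16761628 to 16762322, which ranked 481.5 of 20621 in LNCaP-abl and 1005 of 7105 under DHT. Chromosome 1 from 89458030 to 89458726 ranked 1027.5 and 756, and chromosome 2 from 220143873 to 220144567 ranked 1065.5 and 838.5. On chromosome 17 there were 2 such sites, from 65821149 to 65822313 (469 and 1139) and from 33468781 to 33469522 (1277 and 1325). The last of the 6 was on chromosome 6 from 32938488 to 32938952 (1498.5 and 1157.5). No site of this class stood near the top of both lists. Over the 1262 shared sites without a vehicle peak the ranks in LNCaP-abl and under DHT were almost unrelated (rho 0.0962), against 0.287 over the 4358 with one. Few sites of this class were among the leading peaks of either list, which narrows their range of ranks. The part of that in the lower rho was not tested.

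At 4357 sites all 3 lists had a peak, which allows the ranks of the same sites to be compared. The rho was 0.288 between LNCaP-abl and DHT, 0.418 between LNCaP-abl and vehicle and 0.527 between DHT and vehicle. The LNCaP-abl rank was nearer to the DHT rank at 1939 sites and nearer to the vehicle rank at 2415. That is 44.5% for DHT (43.1 to 46.0). With 1000 peaks from each list the same share was 44.4% (39.2 to 49.6) over 363 sites that were not tied, and with 7105 peaks 46.7% (44.9 to 48.4). Sites that stood higher under DHT than under vehicle did not stand higher in LNCaP-abl. The 872 sites (20% of the total) with the largest advantage under DHT had a median rank of 1552.5 under DHT, 3492.5 under vehicle and 2687.5 in LNCaP-abl. The 871 sites with the largest advantage under vehicle had medians of 3445, 1525 and 2021. The LNCaP-abl median was therefore better for sites favoured by vehicle. All 3 rankings come from single libraries, and the median distance to the LNCaP-abl rank was 925.5 places for DHT and 797 for vehicle.

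With all peaks, the share of DHT peaks found in LNCaP-abl ran from 82.4% on chromosome 10 to 95% on chromosome 13, with 86.7% on chromosome X. With both lists at 7105 peaks the chromosomes differed more, from 49.4% (38.2 to 60.6) on chromosome X and 57.6% (52.6 to 62.5) on chromosome 19 to 77.5% (72.8 to 81.7) on chromosome 3. The lists also differed in composition. Chromosome X took up 2.38% of the LNCaP-abl list and 1.17% of the DHT list, which is 2.03 times as much (1.61 to 2.60). Chromosome 19 took up 1.41 times as much (1.26 to 1.58), and chromosome 22 1.35 times (1.12 to 1.62). Chromosome 18 had the lowest ratio, 0.670 (0.548 to 0.823). With both lists at 7105 peaks, chromosome 19 was at 1.01 (0.875 to 1.16), so its surplus lay among the lower-ranked LNCaP-abl peaks. Chromosome X was at 1.17 (0.863 to 1.59), with 97 LNCaP-abl and 83 DHT peaks. That interval is too wide to tell whether the leading peaks share its surplus. Chromosome 22 stayed at 1.32 (1.06 to 1.64) and chromosome 18 at 0.703 (0.541 to 0.909). The full lists put chromosome 10 below 1 (0.830, 0.733 to 0.940), as did the equal ones (0.818, 0.699 to 0.956). The crowded window at 42 to 43 Mb held 44 of the 363 DHT peaks of chromosome 10 and 18 of its 874 LNCaP-abl peaks. Of those 44 DHT peaks, 28 had no LNCaP-abl peak. The part of that window in these ratios and in the 82.4% above was not tested. In all, the interval lay above 1 on 3 chromosomes and below 1 on 4 with all peaks, and on 2 and 3 at equal length, where chromosome 3 (1.16, 1.01 to 1.34) and chromosome 9 (0.834, 0.709 to 0.980) joined those named. No adjustment was made for comparing 23 chromosomes.

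**Figure D5:**
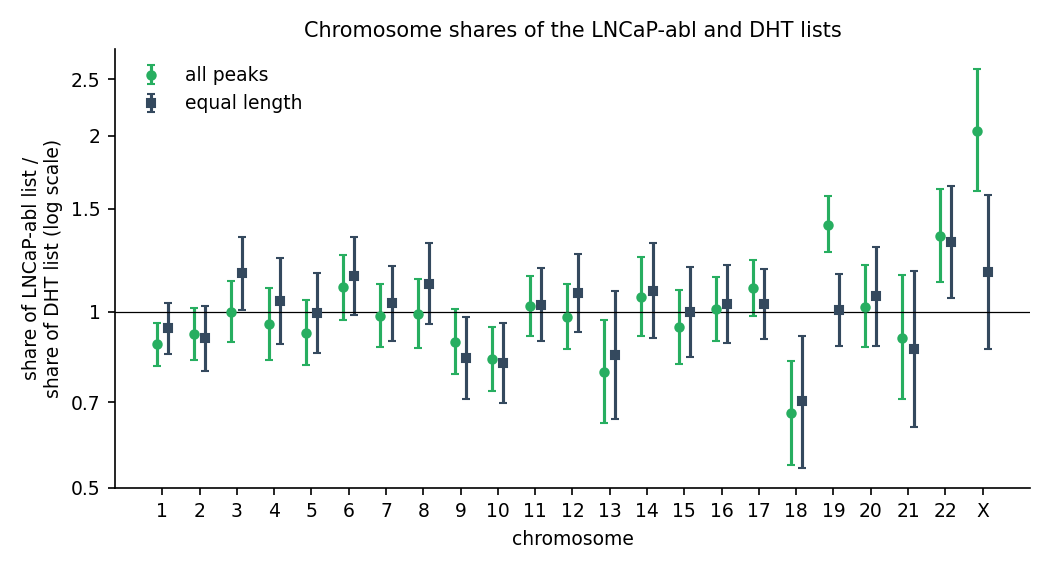
Ratio of a chromosome's share of the LNCaP-abl list to its share of the DHT list (y axis, log scale) for 23 chromosomes (x axis), with all peaks (circles) and with both lists at 7105 peaks (squares). Bars are exact 95% intervals. The bars of chromosomes 19 and X clear 1 with all peaks only, while those of chromosome 22 lie above 1 and those of chromosomes 10 and 18 below 1 in both.

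Genes near the sites were not analysed here, because no annotation of hg19 was used. The number of protein-coding gene names per chromosome gave the one measure of gene content. On chromosome X there were 57.8 LNCaP-abl peaks and 9.79 DHT peaks per 100 such genes. On the autosomes LNCaP-abl had between 87.3, on chromosome 11, and 129 peaks, on chromosome 22. DHT had between 27.6, on chromosome 19, and 54.8, on chromosome 18. Chromosome X thus had the fewest TRIM24 peaks for its genes in either list. Along the genome, 1862 of the 1890 windows of 1 Mb with a DHT peak also had a LNCaP-abl peak, and 552 windows had LNCaP-abl peaks only. Peak numbers per window in the 2 lists had a rho of 0.749 over 2442 windows, against 0.790 for vehicle and LNCaP-abl in the same windows. Windows of all lists share the same gene density, so this is a description. The windows with the most LNCaP-abl peaks that DHT lacked were chromosome 19 from 1 to 2 Mb, with 109 of 129, and chromosome 8 from 145 to 146 Mb, with 65 of 84. Over the whole list, 14967 of 20621 LNCaP-abl peaks had no DHT peak and 27.4% had one. Such a count favours windows with many LNCaP-abl peaks.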

How the data were processed

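The material was 3 TRIM24 ChIP-seq peak lists, 1 library each, of which the LNCaP-abl and DHT lists were compared and the vehicle list served for reference. The 3 input libraries were not analysed here. FastQC 0.10.0, Bowtie 0.12.7, MACS2 2.0 and hg19 are named, per the submitters' processing notes. Peak names carry the name of a single library. Which read filters, cutoff and inputs entered is not given in the sources used here. In the authors' deposited lists the fifth column is a score on the −log10 scale of MACS2 (of a q-value or a p-value, not stated which). All scores exceed 2, and depth is unknown. Starts were converted to count from 1.

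Overlaps were found with Python 3.11.15 (numpy 2.4.6, pandas 2.3.3, scipy 1.17.1), and bedtools 2.31.1 gave the same peaks in 4 comparisons. On simulated lists of the LNCaP-abl and DHT sizes (27726 peaks), 4263 of 4263 planted overlaps were found and 0 false ones. Shares carry Clopper-Pearson intervals. The interval of a difference of shares adds both exact errors in quadrature. Figures used matplotlib 3.10.9.

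Named sites followed a rule: the 8 shared sites with the best poorer rank, the 6 with the widest rank gap in each direction among the top 10% of a ranking, the 8 leading unmatched peaks of each list, and the 6 leading shared sites without a vehicle peak. Others were picked after their values were seen, as stated there. Comparisons and gene lists were chosen with earlier results of these data known. Gene lists, promoter shares and printed sequences were left out, since the RefSeq tables used here are of GRCh38.p14. From them only gene names per chromosome were counted.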

Additional observations from a re-analysis of the deposited data

How the results depend on the processing

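The 6 summary values were recomputed under 43 combinations of value and setting: 21 stayed within their interval and 22 moved beyond it. When overlap had to reach 50% of both peaks, the share of DHT peaks with a LNCaP-abl peak was 24.5% and that of LNCaP-abl peaks with a DHT peak 8.44%. The share among the 1000 leading peaks was then also 24.5%, rho 0.460, the DHT minus vehicle difference -7.26 points, and 15.7% of DHT peaks without a vehicle peak were in LNCaP-abl. This rule fails by construction wherever a peak is nested in a partner over 2 times its width. When a gap of under 1 kb counted as sharing, these shares were 90.7%, 31.4% and, for DHT peaks without vehicle, 74.8%. With peaks of 400 bp the shares were 78.9% of DHT and 26.0% of LNCaP-abl peaks, 40.5% of the 1000 leading peaks and 66.3% of DHT peaks without vehicle. A score of at least 5 gave 22.8% of LNCaP-abl peaks and 79.9% of DHT peaks without vehicle. In lists of 7105 peaks the shares were 66.3% of DHT and 57.4% of LNCaP-abl peaks, rho was 0.419, and 48.9% of DHT peaks without vehicle were found. With 3000 peaks a list the leading share was 49.4% and the DHT minus vehicle difference -6.93 points. Without the mitochondrial genome and 6 windows, a setting chosen after seeing the data, the DHT share was 90.1%. The DHT minus vehicle difference was below 0 under each of its 7 alternatives, and DHT peaks without a vehicle peak were found less often in LNCaP-abl than vehicle peaks without a DHT peak under each of theirs. In lists of 7105 peaks the DHT share fell, while the LNCaP-abl share and rho rose. The causes of the moves between settings were not tested. The planned share of genes with a peak at the start site was not run, because it needs hg19 annotation. No paired analysis was possible because there was 1 library per condition, so that none could be left out either. Unknown depth limits any reading of absent peaks.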
